A study of Mus musculus with 14 samples.

Results

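Solute carriers are membrane proteins that move ions, amino acids, sugars, nucleosides, metals, vitamins and metabolites across the plasma membrane and the membranes of organelles. The genes are numbered by family, and a family usually shares a fold and a kind of substrate, for example family 25 for the carriers of the inner mitochondrial membrane. In bone the carriers are known for bringing phosphate, citrate, amino acids and glucose to cells that make and mineralize matrix. The solute carrier genes described here were all rows whose symbol has the form Slc, a number, the letter a and a number, or begins with Slco. They numbered 141 of 9558 gene rows. GENCODE M21 lists 348 protein-coding symbols of the same form, and the other symbols were not analysed here. The 141 genes fell into 39 numbered families and 5 Slco genes. By family number they were placed in 14 classes, each named after the usual substrate or place of its families. Single members can differ from the class name. For example, the serotonin carrier gene Slc6a4 counts with the amino acid carriers. The vesicular nucleotide carrier gene Slc17a9 counts with phosphate and sulphate, and the peroxisomal carrier gene Slc25a17 with the mitochondrial carriers. Symbols with another letter after the family number, as in part of family 35, fall outside this form.

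Transcripts were sequenced in 14 single cells of flushed and digested limb bones from adult C57BL/6 mice of the genotype Prrx1-CreERT;Tomato. Here the Prrx1 promoter, active in limb mesenchyme, drives a Cre recombinase that works once tamoxifen is given, after which a cell and its progeny carry the red reporter Tomato. All cells came from mice given tamoxifen at 2 mg per 30 g daily for 3 days, and all were sorted as Tomato-positive and then picked singly. The labels name no animal and no second condition, so the 14 cells count as 1 sample and no test between samples was possible. Values below describe these cells only.

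Levels are log2 quantile-normalized FPKM, a read abundance per transcript length and library size, and "detected" means a level of at least 1, equal to an FPKM of 1. No counts are in the table, so sequencing depth is unknown. Dcn, a matrix proteoglycan gene of fibroblasts, was detected in all 14 cells, and Prrx1 itself in 11. Blood cell markers were present as well. The neutrophil granule genes Camp, Ngp and Retnlg were detected in all 14 cells, and Ptprc, the gene for the leukocyte antigen CD45, in 5. The mean over 5 pan-haematopoietic markers was 8.86 in cell 11 and 9.01 in cell 14, against 1.07 to 6.08 in the other cells. The mean over 7 neutrophil markers was highest in cell 6, at 10.74, where Mpo and Elane were at 11.25 and 8.13. The other markers of that list, Camp, Ngp, Retnlg, Ltf and Lcn2, were all higher in cell 14 than in cell 6. Counts of detected genes are given with and without these cells, and no erythroid marker of the list was analysed here.

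Most solute carrier genes were found in a minority of the cells. Of the 141 genes, 47 (33.3%) were detected in at least 7 cells, against 51.7% of all rows. Only 7 genes (4.96%) were detected in all 14 cells, against 15.8% of all rows. At the other end 72 genes (51.1%) were detected in 1 to 4 cells, against 34.9% of all rows, and 16 of these in 1 cell (11.3%, against 7.33% of all rows). The median over the genes of the median level was 0.38, and 0.96 over all rows. In every cell the table has 5066 detected rows, which the normalization sets, and of these between 48 (cells 4 and 9) and 69 (cell 10) were solute carriers, with a median of 58. Without cells 11 and 14, detection in 6 or more of the 12 remaining cells was reached by 47 genes. Without cells 6, 8, 11 and 14, detection in 5 or more of 10 was reached by 51. No share of all rows is given for either setting, so these counts do not compare the members with all rows. The median exon length of the members was 5210 bases and that of all rows 4399. FPKM divides by length although a 3′ kit does not yield more reads from longer genes. With that division undone the medians were 1.30 for the members and 2.35 for all rows.

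**Figure D1:**
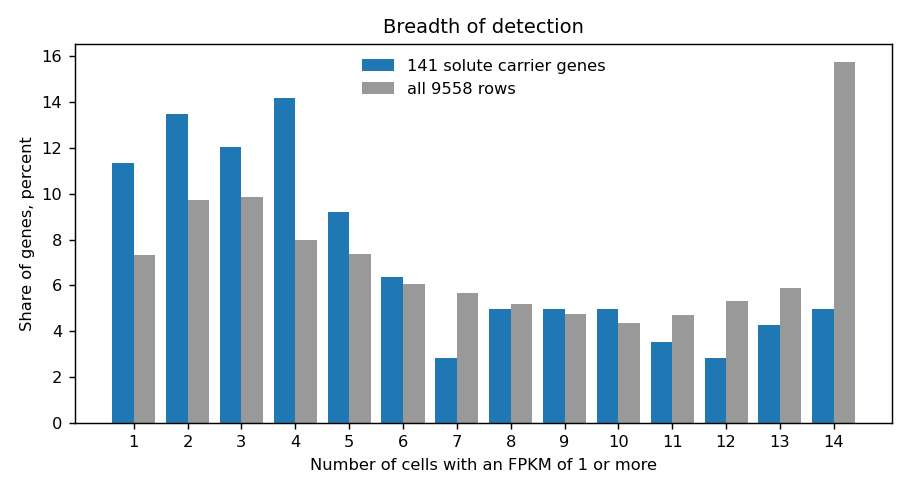
Share of genes (y axis, percent) by the number of cells in which they were detected at an FPKM of 1 or more (x axis), for the 141 solute carrier genes and for all 9558 rows. The bar for 14 cells is 4.96% for the solute carriers and 15.8% for all rows.

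The genes detected in all 14 cells were Slc25a5, Slc25a3, Slc25a4, Slc3a2, Slc38a2, Slc39a13 and Slc7a11. Mitochondrial carriers and amino acid carriers thus made up 6 of the 7, and the last is a zinc carrier. The mitochondrial and amino acid classes hold 29 and 28 of the 141 members. In all, 6 of the 141 genes had a median of 5 or more, against 1159 of the 9558 rows. They were the first 5 genes listed and the nucleoside carrier gene Slc29a1.

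**Figure D2:**
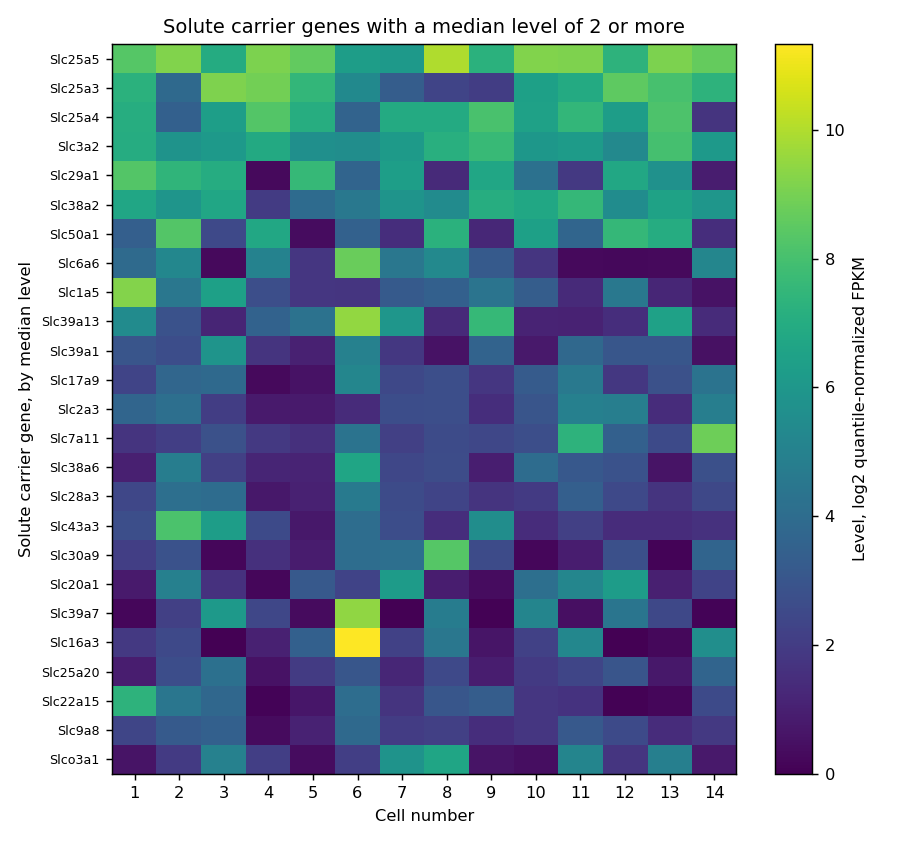
Level of the 25 solute carrier genes with a median of 2 or more (rows, ordered by median) in each cell (columns), in log2 quantile-normalized FPKM shown by colour. The upper 6 rows have medians of 5 or more, and Slc16a3 stands out in cell 6 at 11.33. A median of 2 or more was reached by 25 of the 141 genes and by 3110 of all 9558 rows.

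Promoter sequence was taken from RefSeq (GRCm38.p6) as the 250 bases before the most upstream listed start, and 103 of the 141 genes matched. A set of 3 is shown, namely Slc25a5, Slc28a3 and Slc9a8. Slc25a5 had the highest median of all members per length, at 8.62. With the length division undone it came second at 9.34, after Slc25a3 at 9.56. That order rests on merged exon lengths of 1646 bases for Slc25a5 and 5550 for Slc25a3. The levels of Slc28a3 and Slc9a8 ordered the cells almost alike, as described further on. Capitals mark the GC box GGGCGG or its reverse complement CCGCCC, and each line reads 5′ to 3′ on the gene's strand. Slc25a5 is on the plus strand at chrX:36795347-36795596, Slc28a3 on the minus strand at chr13:58610878-58611127 and Slc9a8 on the plus strand at chr2:167421460-167421709. No exon of GENCODE M21 lies in these windows.
Slc25a5: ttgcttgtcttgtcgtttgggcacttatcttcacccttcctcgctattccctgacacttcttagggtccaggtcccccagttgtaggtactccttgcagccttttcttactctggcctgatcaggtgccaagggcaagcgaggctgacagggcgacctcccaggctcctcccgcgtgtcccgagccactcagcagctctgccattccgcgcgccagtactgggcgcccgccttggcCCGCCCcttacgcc
Slc28a3: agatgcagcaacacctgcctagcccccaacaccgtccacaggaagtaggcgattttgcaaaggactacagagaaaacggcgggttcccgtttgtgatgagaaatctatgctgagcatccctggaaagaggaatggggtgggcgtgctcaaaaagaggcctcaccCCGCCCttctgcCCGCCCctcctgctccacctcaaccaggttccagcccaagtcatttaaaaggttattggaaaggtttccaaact
Slc9a8: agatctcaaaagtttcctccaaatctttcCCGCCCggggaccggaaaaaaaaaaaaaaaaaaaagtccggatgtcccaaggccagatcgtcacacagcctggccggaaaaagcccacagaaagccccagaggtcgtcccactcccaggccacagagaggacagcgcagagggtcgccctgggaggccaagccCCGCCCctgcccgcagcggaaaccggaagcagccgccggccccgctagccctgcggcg
The windows hold 14, 8 and 18 CpG dinucleotides, for Slc25a5, Slc28a3 and Slc9a8 in this order. The GC box, searched on both strands, was present in 64.1% of the members' windows, in 59.8% of the windows of all rows and in 32.96% of all 27025 promoters of the table. The letters TATAAA, likewise on both strands, were present in 6.80% of the members' windows, 6.88% of those of all rows and 12.98% of all promoters. The members detected in at least 7 cells had a median of 16 CpG dinucleotides, and those detected in 1 to 4 cells 14. The windows of the members thus held these letters about as often as those of the other rows.

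On the scale per length, the mitochondrial carriers held the largest part of the carrier signal. No class parts with the length division undone are given, and the order of the classes may differ on that scale. Family 25 had 29 members, of which 13 (44.8%) were detected in at least 7 cells, against 51.7% of all rows. Detection in all 14 cells was reached by 3 and in 1 to 4 cells by 10, against 15.8% and 34.9% of all rows. With levels turned back to the linear scale and summed, solute carriers made up a median of 0.310% of a cell's total (range 0.148% in cell 7 to 2.16% in cell 6). Of this sum the mitochondrial carriers held a median of 44.4% (23.2% in cell 7 to 76.6% in cell 4), and amino acid carriers 21.4% (5.05% in cell 6 to 33.4% in cell 14). Divalent metal carriers followed with 8.85%, sugar carriers with 4.24% and nucleoside carriers with 3.81%.

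**Figure D3:**
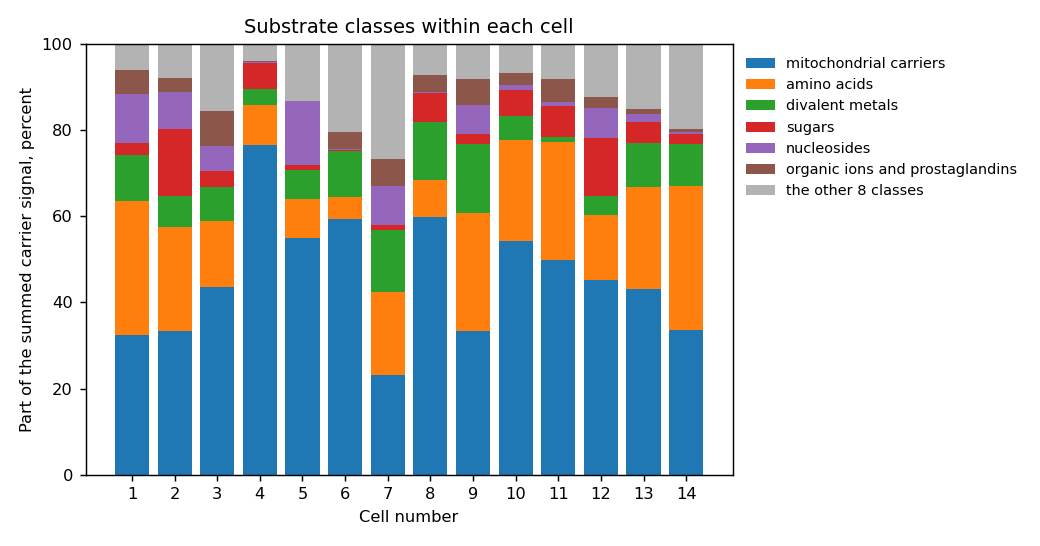
Part of each cell's summed solute carrier signal (y axis, percent, linear FPKM scale) held by the 6 classes with the highest medians and by the other 8 together, by cell (x axis). Mitochondrial carriers range from 23.2% in cell 7 to 76.6% in cell 4.

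Slc25a5 and Slc25a4 encode ADP/ATP carriers, which exchange the ATP made in mitochondria for cytosolic ADP. Slc25a5 (ENSMUSG00000016319, plus strand of chromosome X from 36795651 to 36798807 in GRCm38) had a median of 8.62, with 6.15 in cell 7 as the lowest and 9.99 in cell 8 as the highest level. It was the highest solute carrier of the cell in cells 2, 4, 5, 8, 10, 11 and 13. Its paralogue Slc25a4 (ENSMUSG00000031633, minus strand of chromosome 8 from 46206797 to 46211284) had a median of 6.91 and a wider spread, from 1.70 in cell 14 to 8.32 in cell 4. Cells 7 and 9 were the exceptions in which Slc25a4 had the higher level per length, at 6.91 against 6.15 and 8.08 against 7.22. GENCODE M21 lists 1 pseudogene named after Slc25a5, and the handling of reads shared between copies is not given in the sources used.

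Slc25a3, which carries phosphate into the mitochondrial matrix for ATP synthesis, varied more than either. Its level was 9.13, 8.94 and 8.53 in cells 3, 4 and 12, and down to 2.33 in cell 8 and 2.05 in cell 9. The median was 7.09 and the SD 2.42. Slc25a5 had an SD of 1.21 over the same cells. The cells with the lowest Slc25a3 differed in the ADP/ATP carriers. Cell 8 had the highest Slc25a5 of all cells and cell 9 had Slc25a4 at 8.08, whereas cell 7, with Slc25a3 at 3.33, had the lowest Slc25a5, and cell 2, with Slc25a3 at 3.86, had Slc25a4 at 3.49. Slc25a3, Slc25a4 and Slc25a5 together held a median of 33.7% of the carrier signal, with 70.4% in cell 4 and 0.931% in cell 6.

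Cell 6 differed through Slc25a12, the aspartate/glutamate carrier of the malate-aspartate shuttle. Slc25a12 was at 12.96 there, which was 57.1% of that cell's carrier signal. The next highest levels were 4.81 in cell 2 and 4.27 in cell 13, and the median was 1.13. The related carrier Slc25a13 was also highest in cell 6, at 5.83, and was detected in 7 cells.

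Other family 25 members varied widely between cells. Slc25a39, a mitochondrial glutathione carrier gene, was at 7.68, 6.36, 6.08, 5.50, 4.09 and 3.97 in cells 8, 10, 13, 4, 12 and 9, and at 0 in cells 5, 6 and 14. Slc25a17, a peroxisomal carrier gene, was at 7.21, 6.32, 4.58, 4.56 and 3.28 in cells 8, 1, 9, 4 and 5. Slc25a16 reached 7.87 and 6.01 in cells 8 and 3, and Slc25a22, a glutamate carrier gene, was at 6.57 in cell 3 and 5.38 in cell 10. These 4 genes were detected in 8, 7, 6 and 6 cells. Cell 8 thus had the highest level of Slc25a39, Slc25a17 and Slc25a16 as well as of Slc25a5.

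The genes listed beside these carriers were more broadly detected. Members were set by symbol, so the list may hold related carriers under other symbols, such as Ucp2, Mtch1 and Mtch2. The contrast is thus not one between carriers and other proteins. Of 13 genes for mitochondrial import, pore and pyruvate carrier proteins, 12 reached detection in 7 or more cells, against 51.7% of all rows. In every cell 5 did so, against 15.8% of all rows. Mpc1 and Mpc2, which together form the mitochondrial pyruvate carrier and do not have a solute carrier symbol, had medians of 8.22 and 8.80. The uncoupling protein gene Ucp2 was detected in 5 cells, with a maximum of 3.57 in cell 14.

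Amino acid carriers, by family number, comprised 28 members, with 9 (32.1%) detected in at least 7 cells, against 51.7% of all rows. Detection in all 14 cells was reached by 3 and in 1 to 4 cells by 14, against 15.8% and 34.9% of all rows. Slc3a2 (ENSMUSG00000010095, minus strand of chromosome 19 from 8706882 to 8723369), the glycoprotein heavy chain that brings several amino acid exchangers to the cell surface, was the steadiest of the 7 genes found in all cells. Its level ran from 5.32 in cell 12 to 8.0 in cell 13, with a median of 6.15 and an SD of 0.80. Slc38a2 (SNAT2), which takes up glutamine and other neutral amino acids with sodium, had a median of 5.94, with 1.99 in cell 4 and 7.54 in cell 11.

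The exchanger subunits that pair with Slc3a2 were less even. Slc7a11, the cystine/glutamate exchanger subunit xCT, was detected in all 14 cells but reached 8.82 and 7.33 in cells 14 and 11, against 1.57 to 4.30 in the others. These are the cells with the highest Ptprc, at 6.51 and 8.31. Of other partners, named after their values were seen, Slc7a6 was detected in 1 cell, cell 11 at 5.88, and Slc7a7 in 2, while Slc7a5 was not analysed here. Gclc, the catalytic subunit gene of the glutathione-making enzyme that uses cysteine, was detected at 4.93, 3.61 and 2.79 in cells 14, 13 and 7, and was at 0 in cell 11.

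Slc1a5, the neutral amino acid exchanger ASCT2, was at 9.23 in cell 1, where it was the highest solute carrier, and at 6.43 in cell 3. Its median was 3.29 and its lowest level 0.57, in cell 14. Slc1a4, a related exchanger gene, was detected in cells 4 and 5, at 1.54 and 2.16. Slc1a3, a glutamate carrier gene, was detected in 5 cells and highest in cell 6, at 5.00, and Slc38a1 in 2 cells with at most 2.63. Slc6a6, the taurine carrier, had a median of 3.56 and reached 8.75 in cell 6. It was below 0.30 in cells 3, 11, 12 and 13.

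Of 9 genes of amino acid use, 5 were detected in at least 7 cells, against 51.7% of all rows. Atf4, the transcription factor of the amino acid response, was detected in every cell with a median of 7.81 (6.26 to 8.62). Glul, the glutamine synthetase gene, was likewise in all 14 cells. Psat1 and Phgdh, genes of serine synthesis, were detected in 2 and 3 cells.

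Slc13a5 and, apart from cell 6, Slc36a2 were high in the cells with the highest osteoblast markers. Slc13a5 (ENSMUSG00000020805, minus strand of chromosome 11 from 72241989 to 72267222), the sodium-dependent citrate carrier of the plasma membrane, was detected in 3 cells, at 7.03, 5.94 and 3.28 in cells 6, 13 and 10, and was at most 0.94 in the other 11. Slc36a2 (ENSMUSG00000020264, minus strand of chromosome 11 from 55158470 to 55185077), a proton-coupled carrier of small amino acids, was at 8.26, 7.61, 3.91 and 1.09 in cells 13, 10, 11 and 1, and at 0.64 in cell 6. Its family member Slc36a1 was detected in cells 10 and 13 alone, at 4.82 and 4.49.

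The osteoblast membrane protein gene Ifitm5 was at 11.72, 10.60 and 9.0 in cells 6, 13 and 10. The bone sialoprotein gene Ibsp was at 12.48, 11.17 and 7.25 in cells 10, 13 and 6. Other osteoblast markers differed between these cells: Sp7 and Alpl were at 0.52 and 0.61 in cell 6, Runx2 was at 0.48 in cell 10, and Spp1 at 7.15 in cell 13 was below its level in cells 1 and 11. Over the 9 osteoblast markers with a row, of 11 fixed, the mean was 9.48, 9.23 and 7.66 in cells 10, 13 and 6, against 3.20 to 6.14 in the other cells. Slc13a5 was thus detected in just the 3 cells with the highest osteoblast means, while Slc36a2 was highest in the upper pair of them, lower in cell 11 and just detected in cell 1. These cells also differ in other markers: cell 6 held the early neutrophil granule genes Mpo at 11.25 and Elane at 8.13, which were at 1.53 and 0 in cell 10 and at or near 0 in cell 13. Their part in these values was not tested. Slc13a5 shares exon positions with 1700051A21Rik on the opposite strand, and the sources used do not say whether reads were assigned by strand.

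**Figure D4:**
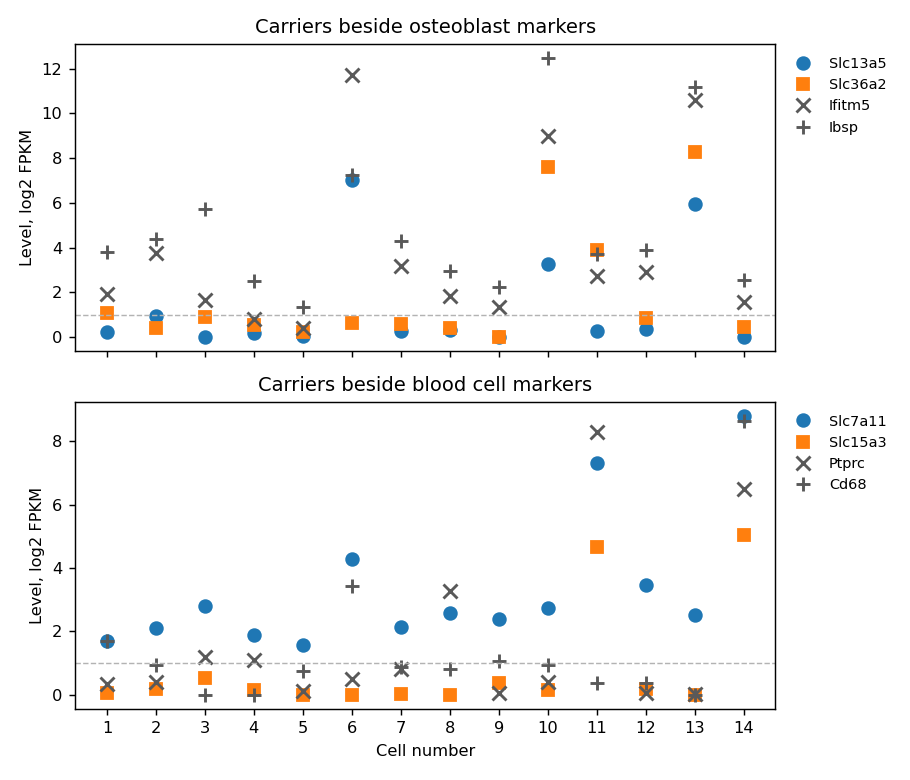
Level (y axis, log2 FPKM) by cell (x axis) of Slc13a5 and Slc36a2 beside the osteoblast markers Ifitm5 and Ibsp (upper panel) and of Slc7a11 and Slc15a3 beside the blood cell markers Ptprc and Cd68 (lower panel), with the detection level of 1 as a dashed line. Slc13a5 is above the line in cells 6, 10 and 13, and Slc15a3 in cells 11 and 14.

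Phosphate carriers of the plasma membrane did not follow the same cells. Slc20a1 (PiT-1), a sodium-phosphate carrier with a role in mineralizing cells, was detected in 9 cells and reached 6.26, 6.21, 5.22, 4.92 and 4.15 in cells 12, 7, 11, 2 and 10. It was at 2.28 in cell 6 and 0.98 in cell 13. Slc20a2 (PiT-2) was detected in cell 1 alone, at 4.80, and its exons overlap Smim19 on the opposite strand, which was also highest in cell 1, at 6.80. The phosphate exporter gene Xpr1 had a median of 2.08 and was detected in 10 cells, and the alkaline phosphatase gene Alpl in 5, with 7.81 in cell 10. Slc26a2, the sulphate carrier needed for cartilage proteoglycans, was detected in 3 cells with a maximum of 2.75 in cell 9. Slc10a7, a carrier gene linked to skeletal growth, was detected in cell 13 alone, at 4.93.

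Glucose carriers were set beside the enzymes of glycolysis. Slc2a3 (GLUT3) had a median of 2.71 with detection in 12 cells, and was at 4.93, 4.85 and 4.84 in cells 11, 14 and 12. Slc2a1 (GLUT1) had a median of 1.72 with detection in 8 cells and a peak of 6.30 in cell 11. Of 13 glycolysis genes with a row, all 13 reached detection in at least 7 cells, against 51.7% of all rows. In every cell 9 of them did so, against 15.8% of all rows, and the median of their medians was 5.08. The medians of Hk1 and Ldhb, at 0.69 and 1.02, were below those of both glucose carriers. Slc50a1, a sugar carrier gene of another fold, was at 8.30, 7.53, 7.24 and 7.03 in cells 2, 12, 8 and 13, with 0.39 in cell 5.

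The lactate carriers were uneven. Slc16a3 (MCT4), the lactate exporter of glycolytic cells, was at 11.33 in cell 6, followed by 5.62 in cell 14 and 5.26 in cell 11, and was at 0 in cells 3 and 12. Its share in cell 6 made monocarboxylate carriers 18.5% of the carrier signal there, against a median of 0.650%. Slc16a1 (MCT1) was detected in 3 cells and peaked at 4.57 in cell 9. Bsg, the chaperone that takes both to the plasma membrane, was found in every cell. Its median was 6.90 and its level in cell 6 was 5.57, so that it was not raised in the cell with the most Slc16a3.

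Among 19 carriers of divalent metals, 7 (36.8%) were detected in at least 7 cells, against 51.7% of all rows. Detection in all 14 cells was reached by 1 and in 1 to 4 cells by 10, against 15.8% and 34.9% of all rows. Slc39a13 (ZIP13), a zinc carrier of the secretory pathway known for connective tissue defects when lost, was detected in all 14 cells, at 9.50, 7.58, 6.47 and 5.96 in cells 6, 9, 13 and 7, and at 1.07 in cell 11. Its exons overlap Psmc3 on the opposite strand, which was at 6.36 in cell 6 and highest in cell 1, at 8.65. Slc39a7 (ZIP7), a zinc carrier of the endoplasmic reticulum, was also highest in cell 6, at 9.46, and was detected in 8 cells. Slc30a9 was at 8.34 in cell 8. Slc39a14 and Slc30a5, which carry zinc or manganese, were detected in 6 and 4 cells, with maxima of 3.94 in cell 13 and 5.39 in cell 2.

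Iron carriers differed in how many cells held them. Slc40a1 (ferroportin), the iron exporter, was detected in cell 9 alone, at 4.65. Slc11a2 (DMT1) was detected in 3 cells, highest in cell 3 at 4.17, and the mitochondrial iron importer gene Slc25a37 in 4, with 5.00, 4.62, 3.51 and 3.01 in cells 1, 12, 14 and 8. Of 8 further iron handling genes with a row, 6 were detected in at least 7 cells, against 51.7% of all rows. Among them the ferritin light chain gene Ftl1 was detected in all 14 cells, at 10.53 to 12.77. Tfrc and Ncoa4 were detected in 3 and 5 cells. Slc11a1 (NRAMP1), the metal carrier of phagosomes in macrophages and neutrophils, was detected in 8 cells. Its levels in cells 14 and 7 were 5.87 and 5.74, and at most 2.38 elsewhere.

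Slc15a3, a lysosomal carrier of histidine and peptides in immune cells, was detected in 2 cells. It reached 5.04 and 4.68 in cells 14 and 11 and was at most 0.53 in the other 12. Cd68, a lysosomal macrophage marker, was at 8.65 in cell 14 and 0.37 in cell 11. The mean over the 4 macrophage markers with a row was 10.71 in cell 14 and 5.26 in cell 11, against 1.11 to 5.93 in the other cells. Whether Slc15a3 and the high Slc7a11 come from leukocyte RNA in these libraries was not tested. The opposite strand of Slc15a3 holds exons of Tmem132a.

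Nucleoside carriers included Slc29a1 (ENT1; ENSMUSG00000023942, minus strand of chromosome 17 from 45585200 to 45599606), which lets nucleosides pass both ways across the plasma membrane. It was at 8.32, 7.61 and 7.41 in cells 1, 5 and 2. The median was 6.05, and the lowest levels were 0.30 in cell 4 and 0.90 in cell 14. It was detected in 12 cells, lowest among them in cells 8 and 11, at 1.33 and 1.88. Organic ion carriers were led by Slc22a15, with a median of 2.16 and 7.31 in cell 1, and by Slco3a1, at 6.67 in cell 8 and 5.81 in cell 7. The prostaglandin carrier gene Slco2a1 was detected in 10 cells with 4.90 in cell 3. Slc22a4, the carrier of ergothioneine, was detected in 3 cells and reached 8.40 and 7.02 in cells 6 and 3.

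Carriers of nucleotide sugars supply the Golgi apparatus, where matrix proteins are glycosylated. Slc35a2, the UDP-galactose carrier, reached 7.78 and 5.97 in cells 13 and 5 and was at 0 in cells 6 and 7. Slc35a1, the CMP-sialic acid carrier, was at 5.83, 5.50, 5.27, 4.42 and 3.99 in cells 9, 10, 7, 4 and 13, and at most 0.80 in the other 9. Cell 13 was the cell with both near 4 or above.

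Carriers of sodium, protons, chloride and bicarbonate had 13 members. Of these 2 (15.4%) reached detection in 7 or more cells, against 51.7% of all rows. In every cell 0 did so, against 15.8% of all rows. Slc9a8, a sodium/proton exchanger gene of the Golgi apparatus, was detected in 13 cells. The bicarbonate carrier gene Slc4a7 reached 5.17 and 4.39 in cells 1 and 2, and the anion exchanger gene Slc4a2 reached 3.97 in cell 8.

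Cell 6 had the highest level of 21 members (14.9%), against 10.1% of all rows with their highest level in that cell. Cell 7 had the highest level of 1 member (0.709%), against 7.27% of all rows. A value of 8 or more in some cell was reached by 17 members (12.1%), against 19.9% of all rows.

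Of 17 members detected in 12 or more cells, 8 (47.1%) had a median below 3. Of all 2579 rows so detected, 589 (22.8%) did. Among these 8 members, the Spearman correlation of a pair over the 14 cells had a median of 0.505 over the 28 pairs. It ran from -0.059 for Slc7a11 with Slc43a3 to 0.947 for Slc28a3 with Slc9a8. The same median over low, broad rows outside the members is not given, so 0.505 does not set the carriers apart. Slc28a3, Slc9a8 and Slc23a1 are described here because they ordered the cells most alike, and were chosen after their values were seen. Slc28a3, a concentrative nucleoside carrier gene, was detected in 13 cells. Its levels ran from 0.72 in cell 4 to 4.61 in cell 6 around a median of 2.42. Slc9a8 was between 0.34 in cell 4 and 3.88 in cell 6, and Slc23a1, a vitamin C carrier gene of epithelia, between 0.64 in cell 5 and 4.71 in cell 6, each in 13 cells. Their SDs, 1.15, 0.99 and 1.05, were below the median SD of the members, 1.51. Cells 6, 3 and 11 were high and cells 4 and 5 low in all 3 genes, and cell 2 was high in Slc28a3 and Slc9a8. The correlation of Slc23a1 was 0.881 with Slc28a3 and 0.868 with Slc9a8.

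Rows outside the solute carriers had a like order. In all, 259 rows (2.71% of all rows) had a Spearman correlation of 0.8 or more with Slc28a3 over the 14 cells, whereas the median number of such rows was 7 over members and 6 over all rows. The correlations share the libraries and the normalization, and the likeness was noticed in the data. Among the 259 rows, named after their values were seen, were Il17f, a T cell cytokine gene (0.947), Smco1 (0.978), Krt18, an epithelial keratin gene (0.877), and Dao, a D-amino acid oxidase gene (0.859). Since these rows were chosen for their order, their median level, from 0.43 in cell 4 to 5.04 in cell 6, shows their height and is no further support for the order. Slc9a8 had 223 rows of like order and Slc23a1 had 188, followed among members by Slc25a23 with 63 and Slc17a9, a vesicular nucleotide carrier gene, with 61. In all, 9 members (6.38%) had 50 or more such rows, against 4.99% of all rows. With these 9 set aside, 40 of 132 members (30.3%) were detected in at least 7 cells, against 50.4% of the rows treated alike.

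**Figure D5:**
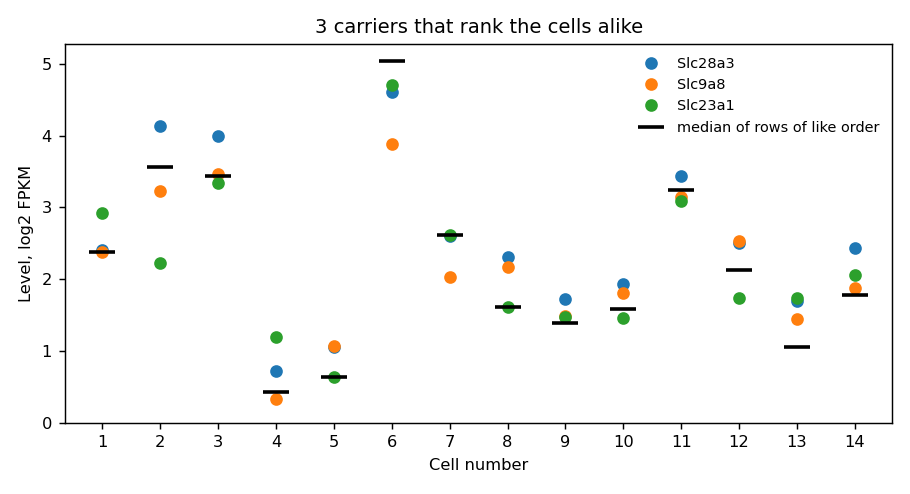
Level (y axis, log2 FPKM) by cell (x axis) of Slc28a3, Slc9a8 and Slc23a1, with the median of the rows whose order over the cells was like that of Slc28a3 as a bar. The rows were chosen for that order, so the bars follow Slc28a3 by construction; the 3 genes are highest in cell 6 and lowest in cell 4 or 5.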

How the data were processed

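Per the submitters' processing notes, TopHat2, Cufflinks and the genome build GRCm38 were used, with no version. Per the labels' protocols, a SMART-Seq v4 3' kit made the cDNA and a Nextera XT kit the libraries. Values in the deposited table look like log2(FPKM + 1). Each cell holds the same distribution, as after quantile normalization: over the 7304 ranks above 0 in every cell, the values of a rank lay within 0.0246 of each other. Both readings rest on the values. Reads per cell are unknown, so that a level shows where a gene stands within its cell.

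Computed here with Python 3.11.15, pandas 2.3.3 and numpy 2.4.6 were detection counts, medians, SDs, Spearman correlations and sums of back-transformed values. Gene positions and exon lengths came from GENCODE M21, where all 141 members matched by identifier. An exon length is the merged length of all annotated exons of a gene. The length that Cufflinks divided by may differ, so the division was undone only approximately. The detection count was tested on simulated data. Exons of 42 members overlap another gene, so that reads may be shared. No test, interval or p-value is given, since the cells form 1 sample.

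The members, classes and gene lists were chosen with earlier results of these data known. Named genes are the 20 highest medians, the 15 largest SDs among members in 5 to 9 cells, members in at most 4 cells that reach 8, fixed genes with roles in bone or blood, and the 2 highest of each family or class. Alternatives were other detection thresholds, cells left out, the length division undone and other ways to sum or average. A few genes are not reported here.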

Additional observations from a re-analysis of the deposited data

How the results depend on the processing

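The detection threshold moved the counts most. Members detected in at least 7 cells numbered 47, and 116 for any value above 0, 16 from an FPKM of 5 and 9 from an FPKM of 10. Members in all 14 cells numbered 7, and 53, 2 and 2 at the same 3 settings, while the median number per cell was 58, and 108, 34 and 25. Leaving out cells 11 and 14, or cells 6, 8, 11 and 14, kept these 3 quantities within 1.5 times their values. Setting aside the members with many rows of like order, an alternative added after the data were seen, was run for the first quantity alone and gave 40. For any value above 0, the share found in all 14 cells was 37.59% of members and 45.96% of all rows. No share of all rows is given for the other counts at the other thresholds. Those counts thus do not show whether the contrast with all rows holds there. The median member level of 0.38 became 1.02 as a mean over members and 1.30 with the length division undone. The summed share of 0.310% moved to between 0.226% and 0.446% over its alternatives. Its SD over cells, 0.501, rests on cell 6, at 2.16%, since the other 13 cells lay between 0.148% and 0.472%. Class counts were repeated only for the other thresholds and the cells left out. Of these 70 counts, 33 stayed within 1.5 times. Leaving out cells 11 and 14 kept every class count, and most of the 37 that moved did so with the threshold. No paired analysis was possible because the labels give 1 group. Depth is unknown, so a value of 0 or below 1 does not show that a gene was absent from a cell.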

Other observations

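Some members of carrier families best known from nerve cells were found in 2 or 3 cells. Slc18a1, a vesicular monoamine carrier gene, was at 7.06, 2.21 and 2.06 in cells 14, 2 and 7, and at 0 in the other 11 cells. Slc12a5, a potassium-chloride cotransporter gene of neurons, was at 5.13 in cell 14 and 1.20 in cell 13. Slc6a4, the serotonin carrier gene, was at 4.97, 2.20 and 1.92 in cells 12, 8 and 5. Slc12a5 and Slc6a4 were named after their values were seen.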
